A study of Mus musculus with 20 samples.

Results

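A set of 9 genes for transcription factors of the formative and primed epiblast was followed across sorted mouse embryonic stem cells. They are Otx2, Pou3f1, Zic2, Zic5, Foxd3, Vrtn, Zfp608, Lef1 and Grhl2. They were named by symbol, all 9 were found among the 29692 genes of the RNA-seq table, and some were chosen by their higher value in state 2. Embryonic stem cells, cultured with serum and leukemia inhibitory factor (LIF), were separated by flow sorting into 3 states. State 1 was Nanog high and Sox2 high, state 2 was Nanog low and Sox2 high, and state 3 was Nanog low and Sox2 low. The total population was the remaining group. All 4 groups came from the same medium, and the labels name neither the cell line nor the reporter or stain behind the sort. For each group 3 rRNA-depleted RNA-seq libraries were made, 12 in all, and the authors' table gives 1 value per gene and group. No spread between libraries can be given, and the labels do not say whether libraries came from separate cultures.

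The formative and primed states follow naive pluripotency, as the epiblast of the embryo implants and becomes able to respond to signals for the germ layers. Otx2, with its partner Oct4, binds new enhancers during this exit, and Pou3f1, Zic2, Zic5 and Lef1 are commonly used as its transcriptional markers. Several of these factors return later in the embryo: Otx2, Pou3f1 and the ZIC genes in neural tissue, Foxd3 in neural crest and Grhl2 in epithelia.

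Values are the authors' normalized read counts per group, not divided by gene length, so levels were compared between groups and not between genes. The column totals were 16.9 to 17.7 M. They stand for an estimated 48.0 to 60.4 M reads or read pairs per group, from which 95% Poisson intervals for counting error alone were made. A difference between 2 groups was called where the posterior probabilities that the authors' model deposited for patterns with unequal groups summed to at least 0.95. Log2 ratios are of the value plus 1. Genes named to spell out a count of 5 or fewer, or singled out beside it, were chosen after their values were seen.

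The sequences just upstream of the start are shown for Vrtn and Lef1, strong risers with states 2 and 3 at a like level, and for Otx2, which took another course. They are the 250 bases before the outermost RefSeq start in GRCm38.p6, 5′ to 3′ on the strand of the gene: chr12:84640769-84641018 on the plus strand for Vrtn, chr3:131110047-131110296 on the plus strand for Lef1 and chr14:48667645-48667894 on the minus strand for Otx2. Capitals mark a match to a ZIC-type word.
Vrtn: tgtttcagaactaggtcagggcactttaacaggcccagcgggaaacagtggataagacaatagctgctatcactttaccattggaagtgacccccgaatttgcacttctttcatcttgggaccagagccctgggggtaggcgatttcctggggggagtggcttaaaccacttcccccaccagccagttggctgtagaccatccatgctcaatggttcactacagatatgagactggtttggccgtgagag
Lef1: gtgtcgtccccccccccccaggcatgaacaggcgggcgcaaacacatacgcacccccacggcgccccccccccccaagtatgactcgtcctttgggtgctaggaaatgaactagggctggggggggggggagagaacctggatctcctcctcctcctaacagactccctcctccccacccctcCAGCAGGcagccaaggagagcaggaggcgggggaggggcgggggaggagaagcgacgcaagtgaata
Otx2: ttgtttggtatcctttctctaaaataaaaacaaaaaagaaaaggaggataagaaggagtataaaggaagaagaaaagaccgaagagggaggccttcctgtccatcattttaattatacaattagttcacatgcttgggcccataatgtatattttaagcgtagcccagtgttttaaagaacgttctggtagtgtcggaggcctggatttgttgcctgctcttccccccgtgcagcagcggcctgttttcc

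Of the 9 genes, 5 had upstream windows in the RefSeq table (Lef1, Foxd3, Vrtn, Otx2 and Zic5, with 13 windows in all, since a gene can have several starts). The 7 words searched on both strands were CTTTGAT and CTTTGAA for TCF/LEF factors, TAATCC for OTX, ATGCAAAT for POU, AACCGGTT for GRHL, CAGCAGG for ZIC and GTAAACA for FOX. CAGCAGG lay 67 bases before the Lef1 start shown, and again in the overlapping window of the next start. All windows of the table held it in 8.44% of 32851 cases. TAATCC was found at an inner Otx2 start only, 211 bases before it, against 6.25% of all windows. The other words had no match in the 13 windows, against shares of 0.116% to 4.46% over all windows, which says only that these letters are not there. The Lef1, Foxd3 and Zic5 windows before the outermost start had a GC content of 66.4%, 65.6% and 62.4%, Vrtn 51.6% and Otx2 42.0%, beside a median of 52.4% over all windows.

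Vrtn, Zfp608, Lef1 and Pou3f1 were low in state 1 and at least 10.1-fold higher in state 2. Each stayed high in state 3. The rise was a reason for including some members, so it is a description of these 4 genes and no test. Such a rise cannot show how far apart the sorted states lay. In bulk RNA, fewer cells that express a gene and less RNA per cell cannot be told apart.

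Vrtn encodes vertnin, a putative DNA-binding protein known from the number of thoracic vertebrae in livestock (ENSMUSG00000071235.12; chromosome 12, 84641019 to 84651455). Its values were 12.6 in state 1, 347 in state 2, 368 in state 3 and 80.2 in the total population. The state 1 value rests on about 39 reads (95% counting interval 8.87 to 17.1), and the other groups lie well outside that interval. State 2 was 27.5-fold above state 1, or 4.67 on the log2 scale with a counting SE of 0.23. States 2 and 3 were not called apart (log2 0.08, posterior sum 0.153).

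Zfp608, a zinc finger protein gene (ENSMUSG00000052713.8; chromosome 18, 54888045 to 54992591), had values of 23.5 in state 1, 572 in state 2, 813 in state 3 and 156 in the total population. It was 24.3-fold higher in state 2 than in state 1 (log2 4.54, counting SE 0.17). Zfp608 went on rising into state 3, by 0.51 on the log2 scale with a posterior sum of 1.00. Only Zic2 among the other members was also called higher at that step, and 2.07% of all genes were called higher at both.

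Lef1 encodes the high-mobility-group factor that joins beta-catenin on Wnt target genes (ENSMUSG00000027985.14; chromosome 3, 131110297 to 131224357). Its values were 33.6, 375 and 384 in states 1, 2 and 3 and 140 in the total population. State 2 was 11.1-fold above state 1 (log2 3.44, counting SE 0.15), and states 2 and 3 differed by 0.04 (log2, posterior sum 0.0464). Pou3f1, the POU factor also called Oct6 (ENSMUSG00000090125.3; chromosome 4, 124657646 to 124660655), had 151, 1526 and 1947 in the same order and 426 in the total population. It was 10.1-fold higher in state 2 than in state 1 (log2 3.33, counting SE 0.07). The step to state 3 was 0.35 on the log2 scale and not called (posterior sum 0.130), although the 95% counting intervals of 1486 to 1568 and 1896 to 2000 do not meet.

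**Figure D1:**
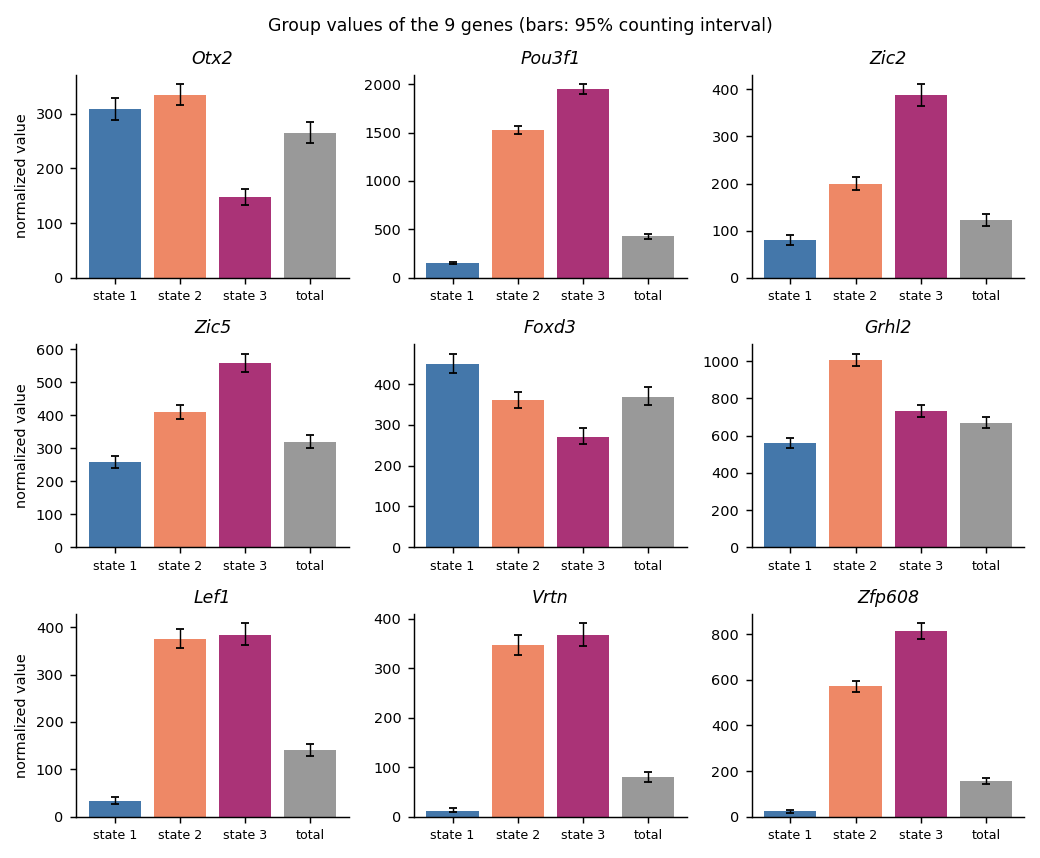
Normalized value (vertical axes, each from 0) of the 9 genes in states 1, 2 and 3 and the total population, with 95% Poisson counting intervals and no spread between libraries. Lef1, Vrtn, Zfp608 and Pou3f1 are lowest in state 1 and high in states 2 and 3, Zic2 climbs at each step, Grhl2 peaks in state 2 at 1006 and Otx2 drops to 148 in state 3. The step of Zic5 from 409 to 558 and the values of Foxd3, 450, 361 and 271, were not called apart.

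The ZIC genes, named for zinc finger proteins of the cerebellum, were higher in states 2 and 3 than in state 1, and of them Zic2 was also called higher in state 3 than in state 2. Zic2 (ENSMUSG00000061524.8; chromosome 14, 122475384 to 122480328) had 79.4 in state 1, 200 in state 2, 387 in state 3 and 122 in the total population. Every pair of states was called apart, with log2 ratios of 1.32 (counting SE 0.11) from state 1 to state 2 and 0.95 from state 2 to state 3. Zic5 (ENSMUSG00000041703.7; chromosome 14, 122459160 to 122465658) had 257, 409 and 558 in the 3 states and 320 in the total population. Its rise from state 1 to state 2 was smaller (log2 0.67, posterior sum 0.977). The step to state 3 was not called (log2 0.45, posterior sum 0.566). The genes lie side by side, 9.73 kb apart, and in both of them state 2 stood 0.581 and 0.599 of the log2 way from state 1 to state 3. The median over the 6070 genes called between state 3 and state 1 was 0.603, close to both. For Vrtn, Lef1, Pou3f1 and Zfp608 the same measure was 0.982, 0.99, 0.905 and 0.899, beside an upper quartile of 0.791. Some members were chosen by their value in state 2, which enters this measure, so nothing is read from that position.

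Grhl2, a Grainyhead-like factor that maintains epithelial gene expression (ENSMUSG00000022286.15; chromosome 15, 37232821 to 37363569), was highest in state 2. Its values were 560 in state 1, 1006 in state 2, 732 in state 3 and 668 in the total population. It rose by 0.84 on the log2 scale from state 1 to state 2 (counting SE 0.04, posterior sum 1.00) and fell by 0.46 into state 3 (posterior sum 0.999). State 3 remained above state 1, by 0.39 (posterior sum 0.977). Grhl2 was the only member called higher in state 2 than in each of the other states, a course that 77 genes (0.259% of all) took.

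Otx2 and Foxd3 did not follow the name of the group. Otx2, a paired-type homeodomain factor (ENSMUSG00000021848.15; chromosome 14, 48656781 to 48667644), had 308 in state 1, 335 in state 2, 148 in state 3 and 265 in the total population. States 1 and 2 were not called apart (log2 0.12, counting SE 0.06, posterior sum 0.182). From state 2 to state 3 it fell by 1.17 on the log2 scale, and state 3 was at a log2 ratio of -1.06 to state 1, each with a posterior sum of 1.00. The lowest Otx2 value was thus in the cells sorted for low Sox2 as well as low Nanog. Foxd3, a forkhead factor of the epiblast and neural crest (ENSMUSG00000067261.4; chromosome 4, 99656299 to 99658671), was 450 in state 1, 361 in state 2, 271 in state 3 and 370 in the total population. It was called in no comparison (log2 -0.32, -0.41 and -0.73 for state 2 against 1, 3 against 2 and 3 against 1, with posterior sums of 0.0769, 0.162 and 0.232). Its 95% counting intervals in the 3 states, 427 to 475, 342 to 381 and 252 to 292, did not meet. These intervals hold no spread between libraries.

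**Figure D2:**
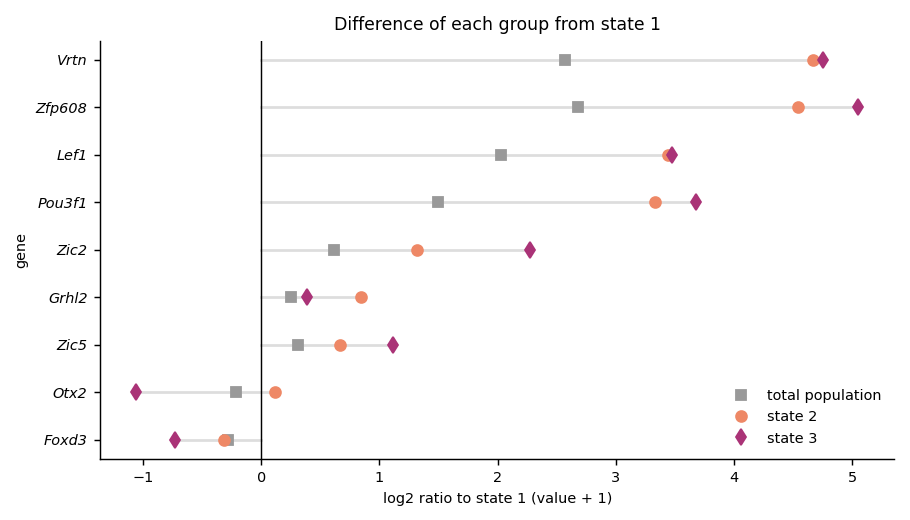
Log2 ratio of the value plus 1 to that in state 1 (horizontal axis) for the 9 genes, ordered by the ratio in state 2, with squares for the total population, circles for state 2 and diamonds for state 3. The upper 4 genes lie at 3.33 or more in state 2, while Otx2 at 0.12 and Foxd3 at -0.32 are near 0.

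Counted over the 9 genes, 7 were called higher and 0 lower in state 2 than in state 1, with Otx2 and Foxd3 not called. Over all genes 7.11% were called higher and 6.33% lower, and among the 11576 genes with a mean value of at least 50 these shares were 14.1% and 14.7%. The minimum of 50 was chosen after seeing the data. Since members were selected on this rise, nothing is read from the difference. From state 2 to state 3, 2 were higher (Zic2 and Zfp608), 2 lower (Otx2 and Grhl2) and 5 not called, where all genes were called in 5.41% and 3.19% of cases and those with a mean of at least 50 in 10.8% and 7.4%. Between state 3 and state 1, 7 were higher, 1 lower (Otx2) and 1 not called (Foxd3), beside 11.4% and 9.01% of all genes and 21.5% and 20.5% of those with a mean of at least 50, a minimum that all 9 members passed. The median log2 ratio of the 9 genes was 1.32, 0.08 and 2.27 in these comparisons, and the median over all genes was 0.00 in each. The comparisons share groups and are not independent of each other. With values divided by the column total in M and the same pseudocount of 1, the log2 ratios of Vrtn and Zfp608 from state 1 to state 2 were 3.65 and 3.90. The pseudocount weighs more on these smaller values.

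The patterns of the authors' model divide the members further. Patterns with states 2 and 3 equal and state 1 apart took 0.954 of the probability for Lef1, 0.870 for Pou3f1 and 0.847 for Vrtn. Patterns with all 3 states apart took 1.00 for Zfp608 and Zic2 and 0.976 for Grhl2. Zic5 was divided between these, with 0.434 and 0.543. For Otx2, patterns with states 1 and 2 equal and state 3 apart took 0.818, and for Foxd3 all 3 states were equal with 0.767. The order in which the patterns name the groups is not spelled out in the table and was inferred. If state 1 and the total population changed places in it, Lef1 and Zic5 would no longer be called between state 2 and state 1, with posterior sums of 0.745 and 0.916. Lef1 and Grhl2 would then also lose the call between state 3 and state 1, with 0.751 and 0.827.

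**Figure D3:**
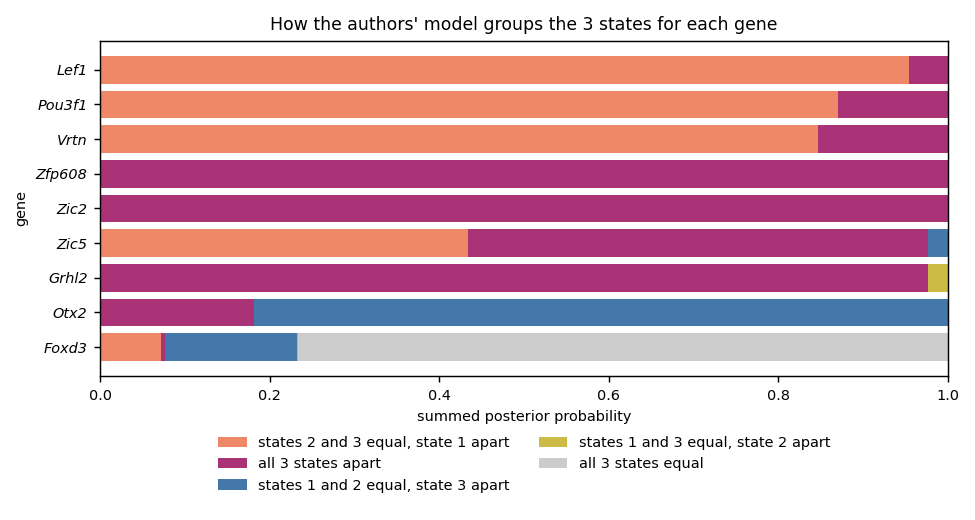
Summed posterior probability (horizontal axis, 0 to 1) of 5 ways to set the 3 states equal or apart, for each gene, from the authors' deposited patterns. Lef1, Pou3f1 and Vrtn are mostly orange (state 1 apart), Zfp608, Zic2 and Grhl2 mostly purple (all apart), Otx2 mostly blue (state 3 apart, 0.818) and Foxd3 mostly grey (all equal, 0.767).

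The total population lay within the range of the 3 states for 9 of 9 members, as it did for 75% of the genes with a mean of at least 50. For the 7 genes higher in state 2, it stood on the linear scale between 0.200 of the way from state 1 to state 2 (Pou3f1) and 0.413 (Zic5). Against state 1, 5 members were called higher in the total population (Pou3f1, Zic2, Vrtn, Zfp608 and Lef1), beside 1.27% of all genes and 2.8% of those with a mean of at least 50. Against state 2, 5 were lower (Pou3f1, Zic2, Vrtn, Zfp608 and Grhl2), beside 5.82% of all genes and 11.7% of those with a mean of at least 50. Lef1 was not called there (140 against 375, posterior sum 0.745). Some members were chosen by their rise from state 1 to state 2, which favours both counts, so nothing is read from them.

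Of 15 measured paralogs of the members, 1 was called higher and 0 lower in state 2 than in state 1, beside 7.11% and 6.33% of all genes. It was Zfp609, the relative of Zfp608, which rose from 2048 to 2683 (log2 0.39) and then to 3092. From state 2 to state 3, Zfp609, Tcf7 and Tcf7l2 rose and Grhl3 and Tcf7l1 fell. Over all genes 5.41% were called higher and 3.19% lower at that step. Among genes with a mean of at least 50 these shares were 10.8% and 7.4%. Grhl3 had 445, 346 and 188 in states 1, 2 and 3 (log2 -0.88 from state 2 to state 3). Grhl1 had 129, 210 and 154, a course much like that of Grhl2, yet was not called (posterior sum 0.0536 for state 2 against state 1). Tcf7l2 rose from 565 to 864 between states 2 and 3 (log2 0.61). The relatives of Pou3f1 had low values, at most 1.45 for Pou3f2, 8.05 for Pou3f3 and 12.1 for Pou3f4 in the 3 states, where 3 reads are worth 0.84 to 1.08. Pou3f4 had 2.58, 5.72 and 12.1 and was not called (posterior sum 0.942 for state 3 against state 1). Otx1 was at most 3.29 in the states, and Crx at most 0.32.

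**Figure D4:**
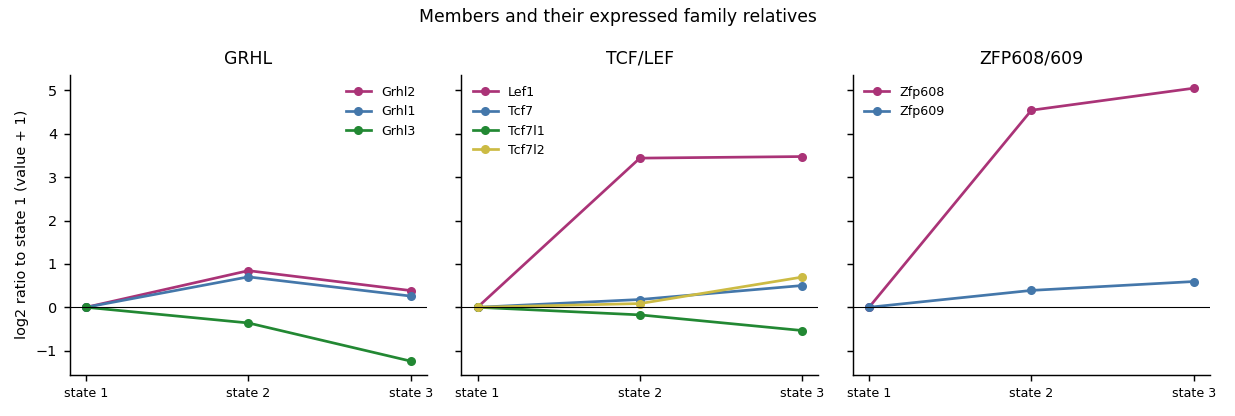
Log2 ratio of the value plus 1 to that in state 1 (vertical axis, shared) in states 1, 2 and 3 for members and their expressed relatives in 3 families. Grhl3 declines while Grhl2 peaks in state 2, Grhl1 runs beside Grhl2 but was not called, and Lef1 and Zfp608 rise far above their relatives.

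Other formative and primed genes made a list of 26, all measured. In state 2, 16 were higher than in state 1 and 2 lower, with a median log2 ratio of 1.11. Over all genes 7.11% were called higher and 6.33% lower at that step, and 5.41% and 3.19% from state 2 to state 3. Sema6a, a semaphorin, and Fgf5, the epiblast growth factor, had the largest ratios (log2 4.71 and 4.49), followed by Lefty1, a Nodal inhibitor, with 3.43 and Pim2, a serine/threonine kinase, with 2.99. The 2 lower genes were Rbpj and Etv5, at 6707 and 3936 and at 7617 and 5564 in states 1 and 2. From state 2 to state 3, 6 were higher, 3 lower (Dnmt3l, Fgf15 and Rbpj) and 17 not called, with a median of 0.32. The DNA methyltransferase cofactor gene Dnmt3l had 1505, 2962 and 1450 in states 1, 2 and 3, and the growth factor gene Fgf15 had 152, 268 and 137, so both peaked in state 2 as Grhl2 did. Some genes of this list, Sema6a and Nes among them, were known from these data to rise. Naive network factors took the reverse course, 11 of 12 lower in state 2 and 9 lower again in state 3. Tbx3, Nanog, Prdm14 and Esrrb, all regulators of the naive state, had log2 ratios of -2.77, -2.48, -2.34 and -2.24 from state 1 to state 2. Nanog was used for the sort.

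The partners and targets of Lef1 took no common course. Ctnnb1, which encodes beta-catenin, had 10269, 9678 and 9729 in states 1, 2 and 3 and was not called. Of 18 partners and Wnt targets, 2 were higher in state 2 (Bcl9l and Nkd1) and 4 lower (Notum, Aes, Cdx1 and Tle3). The median log2 ratio of the 18 was -0.16. Over all genes 7.11% were called higher and 6.33% lower, and 14.1% and 14.7% of those with a mean of at least 50. Notum, a secreted Wnt deacylase, fell by 2.09 and Aes, a Groucho-family co-repressor, by 1.67 on the log2 scale. Cdx1, a caudal homeobox factor, had 95.8 in state 1, 30.3 in state 2 and 62.1 in state 3. Axin2, the common feedback target, had 110, 83.2 and 159 and was not called. In state 3, 6 of the 18 were higher than in state 2, T (brachyury) most of all, from 8.09 to 84.6, and 1 was lower. Over all genes 5.41% were called higher and 3.19% lower there.

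Epithelial genes known from GRHL factors were higher in state 2 than in state 1 in 19 of 24 cases, with a median log2 ratio of 1.26, and 1 was lower. Over all genes 7.11% were called higher and 6.33% lower at that step, and 5.41% and 3.19% from state 2 to state 3. The list also held mesenchymal genes for contrast. Of these Cdh2 (log2 2.83) and Zeb2 (2.02) were among the 19, Zeb1 was the lower one (-1.77) and Vim was not called. The keratin genes Krt18 and Krt8 rose by log2 2.70 and 2.67 and the claudin gene Cldn7 by 2.32. Krt18 and Cdh2 were also on the list of formative and primed genes. Grhl2 fell again in state 3 while 11 of these 24 genes were higher there than in state 2, the mesenchymal Cdh2, Zeb2 and Vim included, and 0 were lower. Krt8 went from 1208 to 5389 at that step and Cldn7 from 261 to 432.

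**Figure D5:**
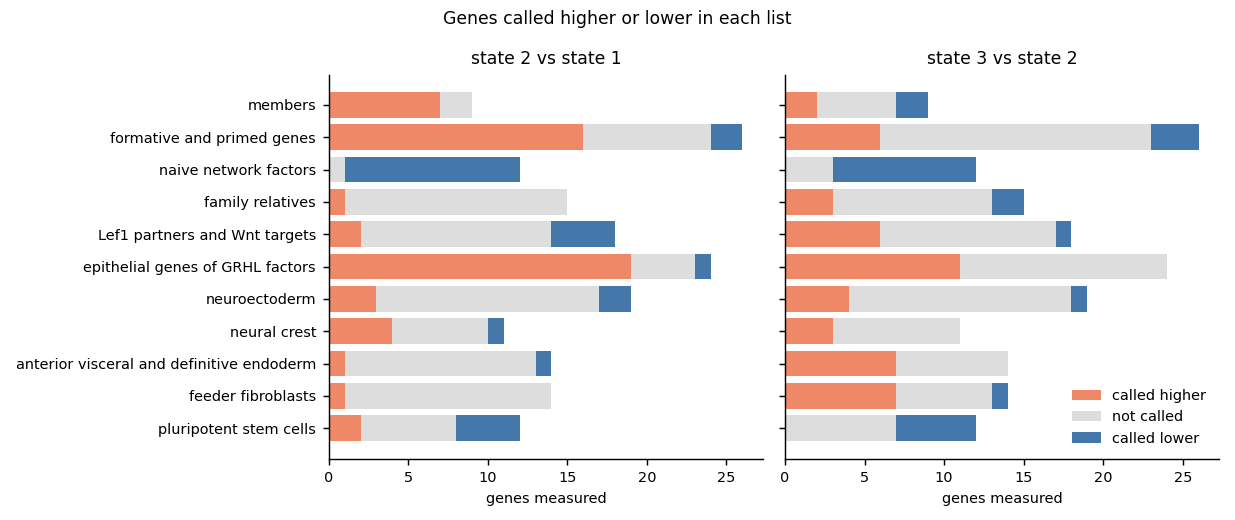
Number of measured genes (horizontal axis) called higher, lower or not called for the 9 members and 10 lists, for state 2 against state 1 on the left and state 3 against state 2 on the right. The 9 members, the other formative genes and the epithelial list are mostly higher at the earlier step, with 7, 16 and 19 genes, and the naive factors lower at both. Some lists share genes, such as Cdh2 and Krt18 in the formative and epithelial lists.

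Markers of tissues where the members are also used were measured beside them. For comparison, 7.11% of all genes were called higher and 6.33% lower in state 2 than in state 1. From state 2 to state 3 these shares were 5.41% and 3.19%, and several of the counts below lie near them. Of 19 neuroectoderm genes, 3 were higher in state 2 than in state 1 (Nes, Sox3 and Neurod1) and 2 lower (Sox1 and Olig2). Nes and Sox3 were also counted above among the formative and primed genes. From state 2 to state 3, 4 were higher (Sox1, Nes, Sox3 and Irx3) and 1 lower (Neurod1), and the summed value was 3659, 4496 and 9201 in states 1, 2 and 3. Nes alone had 248, 1759 and 5446, and the sum without it, added after seeing the data, was 3411, 2737 and 3755. Of 11 neural crest genes, 4 were higher (Sox9, Ets1, Msx1 and Snai1) and 1 lower (Ngfr). At the next step 3 were higher (Ets1, Msx1 and Ngfr) and 0 lower, and the summed value was 621, 634 and 1262. Of this sum Ngfr alone made 531, 258 and 449, so it does not show the course of the other neural crest genes. Sox10, which defines migrating neural crest, stayed between 9.73 and 11.9 in the 3 states. Of 14 endoderm genes, 1 was higher (Foxa2, log2 4.41) and 1 lower (Sox7), and 7 were higher in state 3 than in state 2. The summed endoderm value was 191, 289 and 783 in states 1, 2 and 3, and Cer1 was at 0 in state 1. Of 14 feeder fibroblast genes, 1 was higher in state 2 than in state 1 (Col3a1), and 7 were higher and 1 lower in state 3 than in state 2. Col1a1 had 23.0, 107 and 827, Dcn was at 0 in state 1 and Lum at 0 in state 2. The summed feeder value was 28233, 26151 and 23903, of which Fn1 alone made 27060, 24793 and 17691. The sum thus follows Fn1 and does not show the course of the other feeder genes. These marker changes accompany the rise of Zic2 and Zfp608 and the fall of Otx2 and Grhl2 in state 3, and their part in those results was not tested. Stem cell markers were present in every group. Of 12 such genes, 2 were higher, 4 lower and 6 not called in state 2 against state 1, and Pou5f1, which encodes Oct4, had 13810, 10275 and 9826. Nanog and Sox2, by which the states were sorted, were among the 4 lower, so nothing is read from their calls.

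The genes with the most similar course over the 4 groups were sought among 11210 genes with at least 50 in some group, by the root mean square difference of centred log2 values. For Zic2 the nearest was Rbms1 (0.0138), for Zic5 Slc4a7 (0.0138) and for Grhl2 Icosl (0.0165). Foxd3 lay nearest to Cks2 (0.0256) and Cenpa (0.0306), genes of mitosis, and almost as near to Rita1 (0.0323). No theme is read from these names. Otx2 lay nearest to Gpsm3 (0.0771), Pou3f1 to Slc35f1 (0.0834) and Lef1 to Hs6st2 (0.0927). Ntng1, which encodes a netrin-related membrane protein, was nearest to Zfp608 (0.0787) and to Vrtn (0.129), and Fgf5 was among the nearest 3 of both. Among the members themselves, Vrtn and Zfp608 were the closest pair (0.155) and Otx2 and Zfp608 the most distant (2.25). These are 4 points per gene and describe the table only.

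Neighbours on the chromosome were mostly not called, as was the case for most genes. The nearest protein-coding genes on both sides of the members made 16 besides the members, of which 15 had a value. In state 2 against state 1, 3 of them were called higher (Exoc5, Csnk1g3 and Gramd3) and 1 lower (Clybl), beside the 7.11% and 6.33% of all genes. From state 2 to state 3 none of the 15 was called by the summed posteriors, beside 5.41% higher and 3.19% lower of all genes. Nothing is read from so few neighbours. Pcca, 4.04 kb from Zic2, had 307, 277 and 289 in states 1, 2 and 3, and Hadh, 9.06 kb from Lef1, had 959, 781 and 778. Utp11, 17.6 kb from Pou3f1, had 548, 601 and 604. Gramd3 on the side of Zfp608 was higher in state 2 (191 against 84.2 in state 1), but lies 1395 kb away.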

How the data were processed

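Total RNA of sorted cells was depleted of rRNA, and second strands were marked with dUTP, per the labels' protocols. Among tools and builds, the submitters' processing notes list STAR (2.4.1d), RSEM (1.2.30), mm10 and GRCm38, with no role. The authors deposited 1 table per assay with a normalized signal for every gene in every group. A score from 0 to 1 beside it, also deposited by the authors, is a posterior probability for 1 of 15 patterns of groups. The scaling and merging of libraries are not given in the sources used here. The order of groups in the patterns was inferred. Over 1453 genes with a clear pattern, groups named equal lay closer on average than unequal ones in 100.0% under the order used and in 96.6% under the next best.

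Posterior sums, log2 ratios (pseudocount 1), list counts and profiles were computed in Python 3.11.15 with pandas 2.3.3 over all 29692 genes. The code for the sums was run on simulated posteriors, and the profile search on a planted copy of Otx2. The simulated posteriors lay almost wholly on a known pattern and took the order of groups as given. They check the arithmetic only and not the inferred order. With 1 value per group no fit of counts and no p-value was possible, and calls rest on the authors' model. The members and all gene lists were chosen with earlier results of these data known. A gene left out of the lists is not reported here. By rule, the genes named are the members, up to 4 called genes with the largest change per list and the 3 nearest profiles per member, of which not all are printed. To estimate reads, the most frequent low value in each column was counted as 1 read, and intervals cover counting error only. Positions come from RefSeq genes of GRCm38.p6, matched by symbol for 9 of 9 members.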

Additional observations from a re-analysis of the deposited data

Results flagged for a closer look

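The small RNA table, from 8 libraries in the same 4 groups, holds a row for each of the 9 genes, and in every one of them at least 1 group exceeded the worth of 3 reads, the limit that a count of 0 allows. They were listed because this table is outside the RNA-seq comparisons. For each gene the group furthest above its own worth of 3 reads is given, which need not be the highest value. The values were 16.7 for Pou3f1, 12.5 for Grhl2, 6.61 for Zfp608, 6.0 for Foxd3 and 1.71 for Zic2 in state 3. In state 2 they were 5.46 for Otx2, 4.46 for Zic5, 3.96 for Lef1 and 2.61 for Vrtn. Higher values were 6.42 for Foxd3 and 5.23 for Zic5 in the total population, and 1.74 for Zic2 in state 2. In state 1, Vrtn, Zfp608 and Lef1 were at 0, and a count of 0 there allows a value of up to 1.41. Of the 9 members, these 3 also had the highest RNA-seq folds between states 2 and 1. Some members were chosen for that rise, so nothing is read from the match. None of the 9 reached a posterior of 0.95 for any difference between groups, and the highest was 0.594 for Foxd3. The 9 rows together made up at most 0.00202% of a column. Whether these reads are fragments of the messenger RNA was not tested.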

How the results depend on the processing

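No paired analysis was possible because the tables hold 1 value per group, and leaving out single replicates was not run for the same reason. The counts of called members and of all called genes in the 3 comparisons between states stayed within 1.5 times under calls at 0.80 and 0.99 and under the exchanged pattern order, and those of all genes also with a minimum mean of 5. The exchange cannot change the sums for state 3 against state 2, so it is no check of that comparison. Among members, 7 higher in state 2 than in state 1 became 6 at 0.99 and 5 under the exchanged order. Of 135 alternative log2 ratios of members, 129 moved by less than the 95% counting error, 6 moved by more and 0 reversed. The 6 were those of Vrtn, Zfp608 and Lef1 against state 1 on values divided by the column total in M. They were 3.65, 3.90 and 3.00 for state 2 and 3.70, 4.37 and 3.00 for state 3. The pseudocount was kept at 1 and weighs more on these smaller values, so the 6 shifts do not show an effect of depth scaling alone. Rescaling by quantiles or by median ratios moved the median abundant gene by at most 0.05. Of 60 list counts, 57 stayed within 1.5 times at 0.99. The exceptions were Wnt genes higher in state 2 than in state 1 (1 in place of 2), relatives lower in state 3 than in state 2 (1 in place of 2) and neuroectoderm genes higher in state 3 than in state 1 (3 in place of 5). With a pseudocount of 5, 1 of 9 members kept all 3 nearest profiles, so those names depend on it. On the given strand alone, TAATCC had 0 matches. At 39 reads in state 1, the level of Vrtn is the least precise of the 36 member values.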

Other observations

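The size of a difference and its posterior did not run in parallel among the members. Foxd3 differed by -0.73 on the log2 scale between states 3 and 1 with a posterior sum of 0.232, and Grhl2 by 0.39 with 0.977, at similar counting SEs of 0.07 and 0.05. Grhl1, at 0.70 between states 2 and 1, had 0.0536 where Grhl2 at 0.84 had 1.00. Lef1 differed by -1.41 between the total population and state 2 with 0.745, and Zic2 by -0.71 with 1.00. The values of single libraries, which would show the spread between libraries, were not analysed here. Why size and posterior did not run in parallel was not tested.

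The antisense RNA Otx2os1, next to Otx2, was at most 0.67 in any group, under the worth of 3 reads.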
